A study of Mus musculus with 6 samples.

Results

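Droplet RNA-seq of single testis cells from adult male ICR mice, an outbred stock, gave 6 libraries, in which 13087 of the 54253 deposited barcodes held few RNA molecules and almost none from mitochondrial genes. These 13087 barcodes, called members here, made up 24.1% of all barcodes and 32.4% of the 40361 barcodes with fewer than 4000 unique molecular identifiers (UMIs, each marking a captured RNA molecule). They were selected on measured values: a total below 4000 UMIs, less than 0.15% of UMIs from the 13 genes of the mitochondrial genome, and fewer than 3 UMIs summed over 6 Sertoli cell genes (Cst9, Cst12, Aard, Defb36, Defb19 and Rhox8). Their low depth, low mitochondrial share and low Sertoli cell RNA are therefore given as descriptions only. The members numbered 2464, 1936 and 2711 in smoking libraries 1 to 3, and 2076, 2018 and 1882 in control libraries 1 to 3.

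The smoking mice spent 12 weeks in a chamber with cigarette smoke, 30 minutes a day, with 15 cigarettes a session (nicotine 1.1 mg and tar 11 mg per cigarette, smoke at 3.47 mg/m3). Control mice were kept in a like chamber daily without smoke. All mice had been bought at 6 weeks of age and kept for 1 week before the experiment, which does not match the age of 8 weeks in the labels. The left testis was dissociated and dead cells were depleted. The labels give 7 mice per group without tying libraries to mice, so a p-value here covers spread among 3 libraries per group and not among mice. The study set smoke-exposed against control testes.

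Spermatids, the haploid germ cells that remodel into sperm, stop transcription as protamines replace histones and compact their chromatin. They rely on stored messenger RNA, build a flagellum around an axoneme of microtubules, and shed most of their cytoplasm in residual bodies before release. RNA that is free in the suspension also enters every droplet, so that a barcode shows some UMIs of genes its own cell does not express.

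Library depth ranged from 39607204 to 78455606 UMIs, of which the members held 4663466 to 6739479. Smoking library 3 stood apart: over genes, the chi-square per degree of freedom between summed member counts was 11.7 to 16.2 for its 5 pairs and 2.98 to 4.93 for the other 10 pairs of libraries. No pair differed by less than sampling noise. Libraries shared 16 to 34 barcode sequences per pair, and 161 members carried a barcode that another library also held. No doublet caller was run.

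The members had a median of 2427 UMIs and 1379 genes, with a median mitochondrial share of 0.048%. No mitochondrial UMI was seen in 25.7% of them. Per library, the median mitochondrial share ran from 0.0429% to 0.0564% in members, against 1.39% to 4.50% in the other 27274 barcodes under 4000 UMIs, whose median depth of 2211 to 2614 UMIs overlapped the members' 2260 to 2633. Spermatids of 10000 UMIs or more were as low as the members, with 0.0384% to 0.0477% in 1316 round spermatids (the earlier stage, which forms the acrosome) and 0.0270% to 0.0453% in 3473 condensing spermatids (the later stage, which compacts its chromatin). Barcodes of that depth led by spermatocyte markers (meiotic germ cells, 427 barcodes) had 3.32% to 4.44%, those led by spermatogonia markers (mitotic germ cells, 170 barcodes) 5.30% to 6.45%, and those led by Leydig cell markers (steroid-making cells between the tubules, 162 barcodes) 6.25% to 7.24%. The 2580 members with 0.10% to 0.15% mitochondrial UMIs held 0.735 UMIs of Prss58 and 88.9 of Prm1 per barcode, and the 1834 barcodes just outside that limit, with 0.15% to 0.20%, held 0.658 and 88.1.

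**Figure D1:**
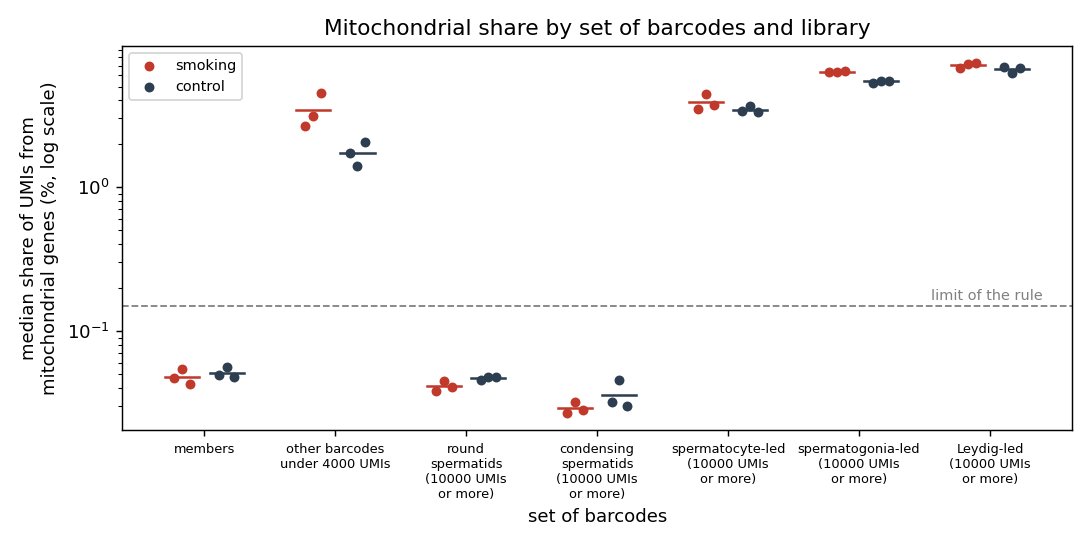
Median share of UMIs from mitochondrial genes (%, log scale) in each set of barcodes, 1 point per library with smoking left of control and a line at the mean of 3 libraries. Members lie between 0.0429% and 0.0564%, close to spermatids of 10000 UMIs or more, while the other barcodes under 4000 UMIs lie between 1.39% and 4.50%.

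The share of members among all barcodes was 27.9%, 20.8% and 27.2% in smoking libraries 1 to 3, and 24.1%, 22.8% and 21.6% in control libraries 1 to 3. The groups overlapped, with means of 25.3% ± 3.88 in smoking and 22.9% ± 1.26 in control libraries (SD, n = 3 each), a difference of 2.43 percentage points (two-sided exact permutation p = 0.4, where 0.1 is the smallest that 3 against 3 libraries allow). Among barcodes under 4000 UMIs the share was 35.3% ± 5.20 in smoking and 29.5% ± 0.648 in control libraries (SD, n = 3 each), a difference of 5.80 percentage points (exact permutation p = 0.3). Without smoking library 3 these differences were 1.49 and 3.76 percentage points.

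Genes of late spermatogenesis were the most abundant in members. Highest were Prm1 and Prm2, the protamines that package sperm DNA, at 33983 ± 5420 and 28119 ± 3277 CPM (counts per 1000000 UMIs; SD over 6 libraries). Next came Tnp2 and Tnp1, the transition proteins that precede protamines, at 16705 ± 2549 and 12632 ± 1865 CPM. Ldhc, the lactate dehydrogenase subunit of germ cells, followed at 6143 ± 470 CPM, then Meig1, which spermatids need to build the flagellum, at 5094 ± 510 CPM. Smcp, a protein of the sperm mitochondrial capsule, stood at 4070 ± 344 CPM, and Odf2, of the outer dense fibres that stiffen the tail, at 2880 ± 129 CPM. Odf2 was the 15th most abundant gene.

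The other barcodes under 4000 UMIs had nearly the same RNA. Over 8824 genes, the Spearman correlation of log2 CPM within a library was 0.961 to 0.981 between members and these other barcodes, 0.934 to 0.947 between members and spermatids of 10000 UMIs or more, 0.515 to 0.572 with spermatocyte-led and 0.173 to 0.217 with Leydig-led barcodes. These are correlations across genes, which are not independent replicates, and the sets of 1 library share its background RNA. Of 3444 genes with at least 50 CPM, 4 were at least 2-fold higher in members in all 6 libraries (0.116%) and 34 were at least 2-fold lower in all 6 (0.987%). Since the rule split these barcodes by measured RNA, none of this was tested. CPM totals included mitochondrial UMIs, which the rule limited in members but not in the other barcodes. Folds of other genes over the other barcodes are raised by this, by an amount that was not measured.

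The 4 higher genes were Gm8251, Osbpl7, Tbx5 and Slc29a3. Gm8251, a predicted protein-coding gene on chromosome 1, averaged 272 ± 52.0 CPM in members and 101 ± 20.01 CPM in the other barcodes (SD, n = 6 libraries), 2.68-fold higher with a range of 2.30 to 3.09 over libraries. Osbpl7, an oxysterol-binding protein family member, was 2.47-fold higher. Tbx5, a T-box transcription factor known from heart and forelimb development, averaged 78.3 ± 11.6 CPM in members and 31.6 ± 6.60 CPM in the other barcodes. Slc29a3, a nucleoside transporter of lysosomes, was 2.34-fold higher. The lowest fold among the 34 was that of Dcn, the stromal matrix protein decorin, at 1.98 ± 1.24 CPM in members and 50.3 ± 26.4 CPM in the other barcodes. Wfdc10, Gm9112, 1700011M02Rik, Tslrn1, Tsx, Etd, 1700018G05Rik, Cst3 and Gm3880 followed, at 0.0714 to 0.0865 of the level in the other barcodes. Against other barcodes held to the same limit on the 6 Sertoli cell genes and to at most 20% mitochondrial UMIs, 10 genes passed in place of 38.

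By list, 9 of 10 round spermatid markers and 12 of 14 condensing spermatid markers were higher in members than in the other barcodes in all 6 libraries, with median folds of 1.18 and 1.10. Over all 3444 genes, 1638 were (47.6%), with a median fold of 1.08. All folds here include the shift from mitochondrial UMIs in the totals. Folds near that of all genes are therefore not read as a trait of the members. Of the genes of the outer dense fibres and fibrous sheath, which armour the tail, 13 of 16 were higher, with a median of 1.12. The axoneme list had 17 of 39 higher and 5 lower, with a median of 1.07. The 3 Sertoli markers at this level, Clu, Ctsl and Amhr2, were at 0.126 to 0.140 of the level in the other barcodes, beside the rule's own limit on Sertoli cell RNA. Malat1, a nuclear noncoding RNA, averaged 1362 CPM in members and 1606 CPM in the other barcodes, a fold of 0.853.

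Of the 4 genes given as markers of the set, 3 did not set it apart. Tekt2, a filament protein of the axonemal doublets, gave 1.06, 1.04 and 1.37 UMIs per member in smoking libraries 1 to 3, and 0.895, 1.07 and 1.03 in control libraries 1 to 3. The other barcodes under 4000 UMIs gave 0.906 to 1.03, Leydig-led barcodes 0.688 to 0.958 and spermatogonia-led barcodes 0.938 to 1.29. Round spermatids of 10000 UMIs or more gave 39.1 to 52.4 UMIs of Tekt2 per barcode, far above all of these. Spag6, of the axoneme's central apparatus, gave 0.467, 0.474 and 0.611 UMIs per member in smoking libraries and 0.422, 0.460 and 0.429 in control libraries, against 0.0870 to 0.600 in Leydig-led barcodes. Dynlt1f, a Tctex-type dynein light chain with near-identical gene copies that make its count uncertain, gave 0.448, 0.546 and 0.761 in smoking libraries and 0.396, 0.524 and 0.426 in control libraries, against 0.167 to 0.667 in Leydig-led barcodes. Folds in CPM over the other barcodes, with mitochondrial UMIs in the totals, were 1.12 for Tekt2, 1.18 for Spag6 and 1.12 for Dynlt1f.

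Prss58, a trypsin-like serine protease gene, was the exception. It gave 0.735, 1.04 and 0.630 UMIs per member in smoking libraries 1 to 3, and 0.659, 0.660 and 0.898 in control libraries 1 to 3. Every one of these was above the 0.332 to 0.502 of the other barcodes under 4000 UMIs, a 1.796-fold difference, and above the 0.0667 to 0.375 of Leydig-led barcodes. Condensing spermatids of 10000 UMIs or more gave 6.61 to 10.7. With 3 markers near the Leydig-led level, the members are called by their rule here, with no cell type name.

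Shares of barcodes with a UMI of Tekt2 were close in members and the other barcodes. After thinning each barcode to 1500 UMIs, 40.7% to 50.9% of members per library held Tekt2, against 38.8% to 44.1% of the other barcodes under 4000 UMIs and 73.0% to 77.9% of round spermatids. Unthinned, the shares were 58.1% to 67.1% of members, at 2260 to 2633 UMIs per barcode, and 43.8% to 66.7% of Leydig-led barcodes, at 13026 to 18662 UMIs, whose thinned shares were 0% to 16.7%.

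**Figure D2:**
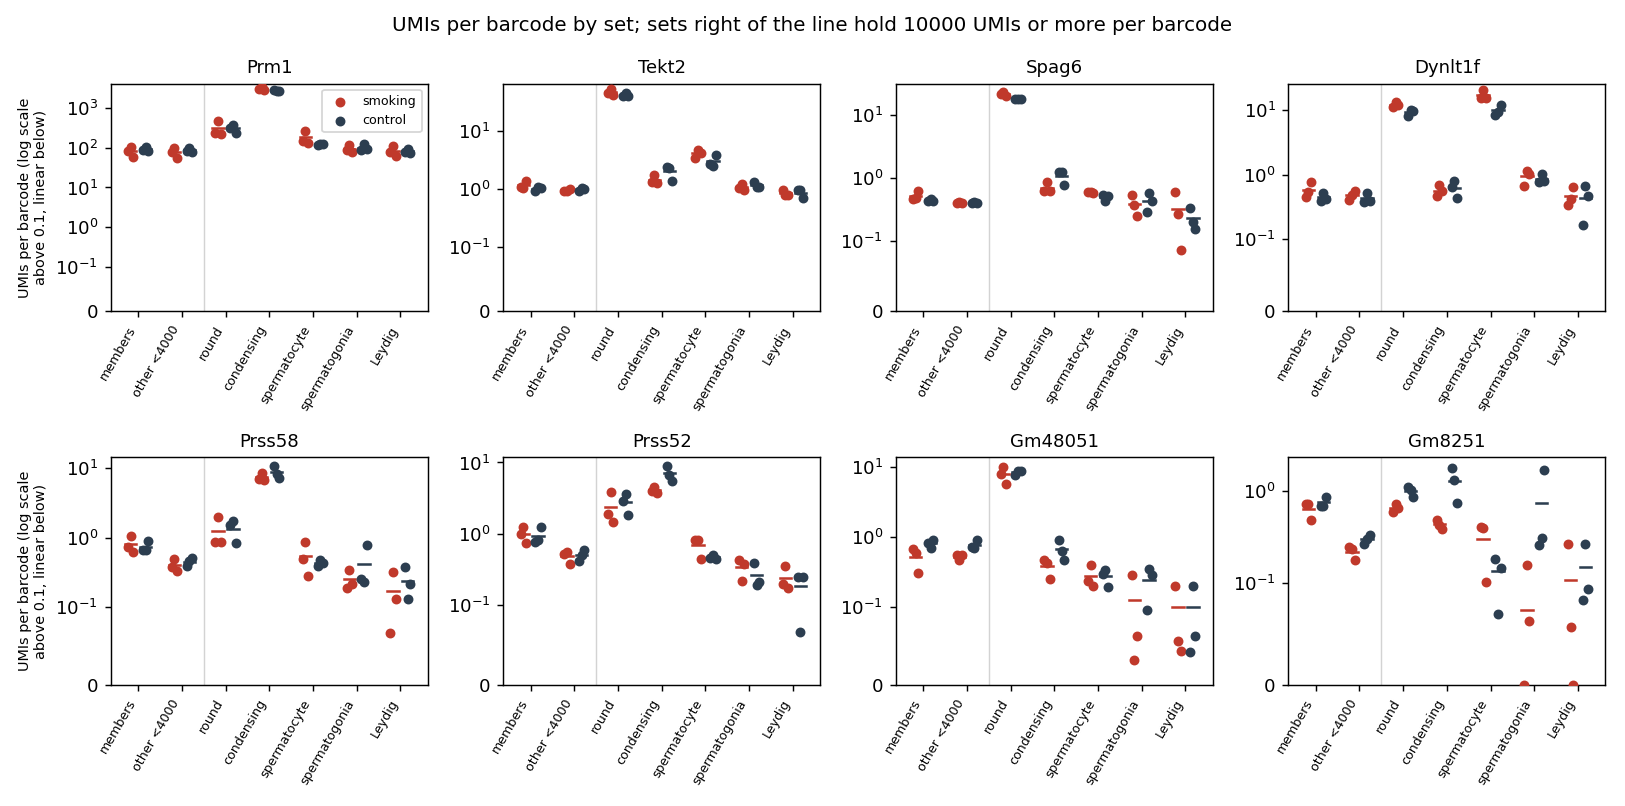
UMIs per barcode of 8 genes (log scale above 0.1, linear below) in each set, 1 point per library with smoking left of control and a line at the mean. Prm1, Tekt2, Spag6 and Dynlt1f are near the Leydig-led level in members, while Prss58, Prss52 and Gm48051 lie above it in all 6 libraries.

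Leydig cells and spermatogonia are not known to make protamines, so UMIs of spermatid genes in their barcodes were taken as each library's background level. Free RNA and doublets with spermatids could both give such UMIs and cannot be told apart here. Prm1, Prm2, Tnp1 and Tnp2 together gave 219, 279 and 166 UMIs per member in smoking libraries 1 to 3, and 237, 279 and 229 in control libraries 1 to 3. Leydig-led barcodes gave 191, 268 and 164 in smoking libraries and 202, 231 and 187 in control libraries. Smoking library 3 was lowest in both sets. Spermatogonia-led barcodes gave 205 to 314, round spermatids 653 to 1282 and condensing spermatids 6727 to 8536. Summed over 150 genes with at least 10 times the CPM in spermatids of both of these sets, members held 293 UMIs, Leydig-led barcodes 240 and spermatogonia-led barcodes 290. Per gene, the members' median was 1.37 times the Leydig-led and 1.17 times the spermatogonia-led level, and 2 of the 150 were at least 2 times both.

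Of 2377 genes with at least 0.2 UMIs per member, 7 (0.294%) were at least 2 times the level per barcode of both Leydig-led and spermatogonia-led barcodes, by means over 6 libraries. A gene that Leydig cells or spermatogonia express themselves can miss this limit for that reason. Gm48051, annotated as a lincRNA on chromosome 13, gave 0.670 ± 0.215 UMIs per member (SD, n = 6 libraries), against 0.101 ± 0.0773 in Leydig-led and 0.185 ± 0.136 in spermatogonia-led barcodes. The other barcodes under 4000 UMIs gave 0.656, so Gm48051 did not set the members apart from them. Prss52, another testis serine protease gene, gave 0.967 ± 0.231, against 0.217 and 0.303, and 0.496 in the other barcodes under 4000 UMIs. The rest were Prss58, the lincRNA Gm29825, Cylc1 (cylicin, of the cytoskeleton around the sperm nucleus), 4921530L21Rik and 4933438K21Rik, annotated as antisense RNA. In members they gave 2.08 to 2.97 times the higher of both background levels. Members held 0.771 UMIs of Prss58, 0.221 of Gm29825, 0.750 of Cylc1, 0.522 of 4921530L21Rik and 1.24 of 4933438K21Rik. The other barcodes under 4000 UMIs held 0.426, 0.0980, 0.485, 0.374 and 0.787 of these. Of the 18 testis Prss proteases listed, 8 were measured at this level, with a median of 1.27 times the spermatogonia-led level, and Prss52 and Prss58 were the 2 above it by this rule. Within single libraries, Gm48051 was at least 2 times both levels in 6, Prss52 in 5 and Prss58 in 4. Gm29825 and Cylc1 were in 3 and 4933438K21Rik in 2. The Leydig-led level rests on few UMIs, such as 13 for Gm48051 and 39 for Prss58. The count was 12 without smoking library 1, 11 without smoking library 2 and 11 without smoking library 3. These 3 counts, and the 10 without control library 1, held all 7 genes. Without control library 2 or control library 3 the count was 9, with 6 of the 7 among them and 4921530L21Rik lost, a gene at least 2 times both levels in 1 of 6 libraries.

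The start regions of the 4 of these 7 genes that had an entry are shown, since these genes stood above both background levels. They run from 250 bases before to 50 after the annotated start (RefSeq, GRCm38.p6), with capitals marking TGATGTCA on either strand (TGACATCA as read here).
Prss58 (chr6:40900338-40900637, minus strand): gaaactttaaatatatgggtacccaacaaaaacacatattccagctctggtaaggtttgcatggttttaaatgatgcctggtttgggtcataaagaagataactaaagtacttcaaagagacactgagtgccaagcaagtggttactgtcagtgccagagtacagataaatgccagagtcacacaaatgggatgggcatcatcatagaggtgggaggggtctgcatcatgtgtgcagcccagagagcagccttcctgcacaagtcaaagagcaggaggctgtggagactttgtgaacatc
Cylc1 (chrX:111110168-111110467, plus strand): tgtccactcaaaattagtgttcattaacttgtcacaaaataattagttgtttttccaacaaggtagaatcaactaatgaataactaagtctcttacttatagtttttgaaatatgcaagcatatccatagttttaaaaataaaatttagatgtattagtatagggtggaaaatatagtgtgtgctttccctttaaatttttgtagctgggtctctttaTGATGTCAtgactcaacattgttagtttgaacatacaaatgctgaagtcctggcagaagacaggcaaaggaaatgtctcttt
4933438K21Rik (chr4:147068387-147068686, minus strand): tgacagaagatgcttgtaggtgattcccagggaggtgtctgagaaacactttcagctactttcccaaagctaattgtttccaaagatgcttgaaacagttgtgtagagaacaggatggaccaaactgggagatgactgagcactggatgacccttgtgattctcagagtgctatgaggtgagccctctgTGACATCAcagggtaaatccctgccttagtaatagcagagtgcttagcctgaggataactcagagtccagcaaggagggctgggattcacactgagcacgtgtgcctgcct
Gm29825 (chr9:114117838-114118137, plus strand): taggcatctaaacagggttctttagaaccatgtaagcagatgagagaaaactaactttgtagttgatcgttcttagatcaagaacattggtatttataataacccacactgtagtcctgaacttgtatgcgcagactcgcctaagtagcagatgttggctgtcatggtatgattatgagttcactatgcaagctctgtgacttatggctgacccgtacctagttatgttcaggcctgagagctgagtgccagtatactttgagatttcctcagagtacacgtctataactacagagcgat
The cAMP response element, through which the spermatid activator CREM binds, has the letters TGACGTCA. Neither these letters nor the shorter TGACG were in these 4 windows, and 1.79% and 20.8% of all 32851 start regions of this length held them. TGATGTCA, looked for after the sequences had been read, was in the windows of Cylc1 and 4933438K21Rik and not in those of Prss58 and Gm29825. With Gm8251 and the markers Tekt2, Spag6 and Dynlt1f included, 3 of 10 windows, from 3 of 8 genes, held it, and 3.62% of all start regions did. The match is a description of the letters and not of a bound site.

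Grouped by their variable genes, the members fell into 16 subsets, which are numbered by size and carry no cell type name. Their leading genes made the grouping, so these values are descriptions. Subsets 1 to 3 held 5466 members (41.8%), and 0, 0 and 3 genes set them at least 2-fold above the remaining members. Subsets 4 to 16 held 7621 members (58.2%), each with 27 to 396 such genes and each present in every library at 0.530% to 9.30% of its members. The share of members in subsets like the first 3 was 42.6% and 41.2% at a coarser and a finer grouping, and 38.3% without smoking library 3.

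**Figure D3:**
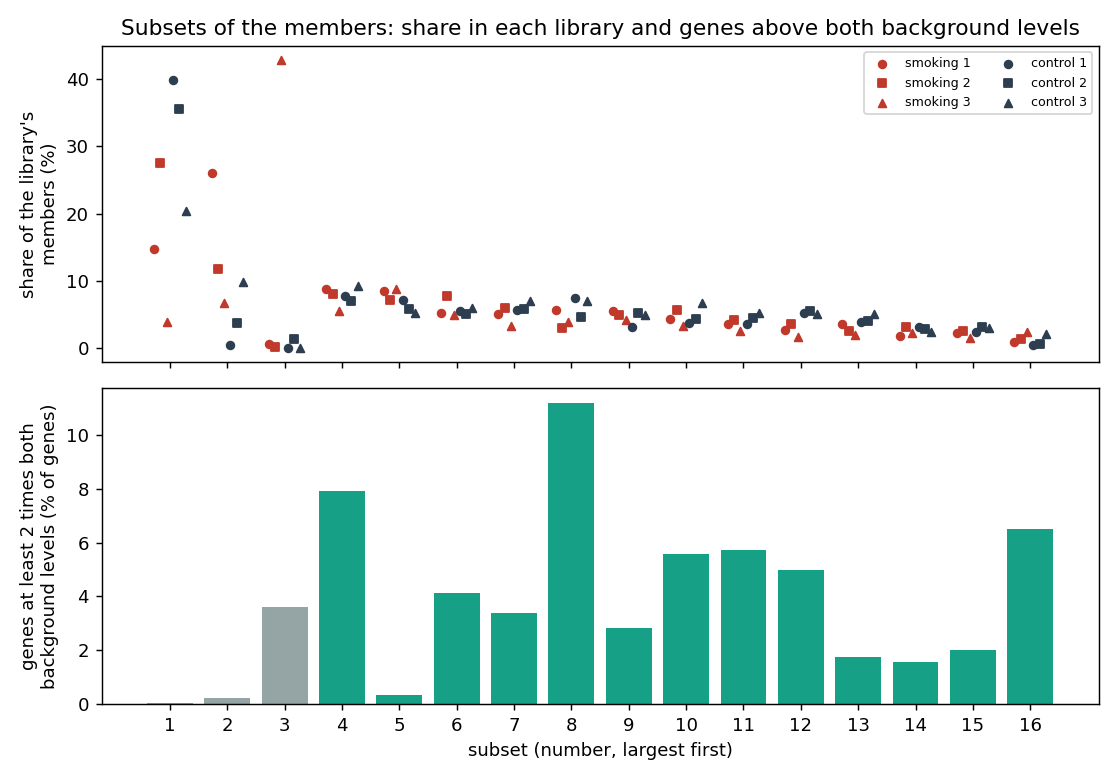
Top, share of each library's members (%) in the 16 subsets, 1 point per library. Bottom, genes at least 2 times the level of both Leydig-led and spermatogonia-led barcodes of the same libraries, as % of genes measured in the subset, with subsets 1 to 3 in grey. Subsets 1 to 3 differ widely between libraries, up to 42.8% in smoking library 3, and subset 8 has the most genes above both background levels, at 11.2%.

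Subset 1, with 2933 members, held 3.84 UMIs of the 10 round spermatid markers per member, against 3.47 in Leydig-led and 5.42 in spermatogonia-led barcodes of the same libraries. Its 14 condensing spermatid markers gave 277 UMIs per member, against 252 and 310. In this subset 1 of 2180 genes (0.0459%) was at least 2 times both levels. Its leading gene was Gm42418, a lincRNA of the annotation, at 11.2 UMIs per member in the subset and 6.87 in the remaining members. Subsets 6 and 14 held 11.5 and 11.4 UMIs of Gm42418, and subsets 2 and 3 held 3.38 and 2.68, so it was not particular to subset 1. Leydig-led barcodes held 50.7 UMIs of it.

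Subset 3, with 1210 members, came to 95.9% from smoking library 3, where it took 42.8% of members, and to at most 1.34% of members in any other library. It was led by Atp6ap1l (0.481 UMIs per member in the subset, 0.167 in the remaining members), 1700065L07Rik and Dynlt1f (1.06 and 0.474). In subset 3, 92 of 2538 genes (3.62%) were at least 2 times both background levels, and in subset 2, 5 of 2211 (0.226%). Subsets 4 to 16 had 0.332% to 11.2%, a range that holds the share of subset 3. Of the markers, Tekt2 gave 2.01 UMIs in subset 3 and 0.887 in the remaining members of smoking library 3. Dynlt1f gave 1.07 and 0.526 UMIs in the same 2 parts of that library. The few subset 3 members of the other libraries gave 1 to 2.5 UMIs of Tekt2 and 0 to 0.852 of Dynlt1f. Since the grouping used expression, the part of this subset in that library's levels was not tested. Whether subset 3 is a kind of cell or a property of that library cannot be told apart.

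Subsets 8 and 9 held the most RNA of round spermatid markers. Subset 8, with 687 members, held 28.3 UMIs of the 10 round spermatid markers per member, against 214 in round spermatids of 10000 UMIs or more. Leydig-led barcodes of the same libraries held 3.26. Acrv1, an acrosomal protein, gave 5.35, 4.95 and 5.69 UMIs in subset 8 in smoking libraries 1 to 3 and 5.35, 5.94 and 5.09 in control libraries, against 0.437 to 0.594 in the remaining members. Its 10 leading genes also held Spaca5, Catsper3, a subunit of the sperm calcium channel, and the claudin-like genes Cldn34b1, Cldn34b2 and Cldn34c4. In subset 8, 329 of 2944 genes (11.2%) were at least 2 times both background levels, the highest share of the 16 subsets. Subset 9, with 614 members, held 13.4 UMIs of the same markers and was led by Catsper3, Zp3r, Spaca1 and Sun5, the last of which joins the sperm head to the tail.

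Protease and capsule genes were among the leading genes of other subsets. Prss58 led subset 6, with 745 members, at 6.67, 7.11 and 6.94 UMIs in smoking libraries 1 to 3 and 5.11, 5.04 and 5.99 in control libraries, against 0.302 to 0.573 in the remaining members. Condensing spermatids of 10000 UMIs or more gave 6.61 to 10.7, a range that overlaps that of subset 6. Cst8, a cystatin of testis and epididymis, went with it at 16.8 UMIs per member in subset 6 and 2.004 in the remaining members. Prss52 stood at 4.09 UMIs per member in subset 6 and led subset 10, with 600 members, at 7.51, 6.94 and 6.37 UMIs in smoking libraries and 5.87, 5.28 and 7.80 in control libraries, against 0.541 to 0.892 in the remaining members. Neurl1a led subset 16, the smallest with 184 members. Smcp, among its 10 leading genes, gave 56.0 to 79.8 UMIs per member by library, against 7.14 to 11.0 in the remaining members. Leydig-led barcodes gave 5.96 to 11.1 of Smcp.

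Gm8251 and Tbx5, higher in members than in the other barcodes, were highest in subset 4, with 1006 members, and next highest in subset 10. Gm8251 gave 4.59, 4.26 and 3.76 UMIs there in smoking libraries 1 to 3 and 4.08, 4.50 and 4.78 in control libraries, against 0.288 to 0.467 in the remaining members. Round spermatids of 10000 UMIs or more averaged 0.589 to 1.11 and condensing spermatids 0.381 to 1.77. These deep barcodes were not grouped by expression as the members were. A subset chosen as high is thus set against ungrouped averages, here and for Tbx5, and no conclusion is drawn. Tbx5 gave 1.24 to 1.57 UMIs in subset 4, against 0.0788 to 0.132 in the remaining members, 0.254 to 0.591 in round spermatids and 0.231 to 0.777 in condensing spermatids. Ung, a uracil-DNA glycosylase of base excision repair, gave 0.818 to 1.01 in subset 4 and 0.0375 to 0.0926 in the remaining members. Sectm1a and Rap1gap led the subset by fold. Gm8251 also stood at 2.30 UMIs per member in subset 7 and 2.59 in subset 10, beside Osbpl7 at 0.916 and 0.490. Tbx5 and Ung were nearly as high in subset 10, at 1.11 and 0.867 UMIs per member, as in subset 4, at 1.35 and 0.944. After thinning, Ung was seen in 3.84% to 6.91% of all members and 10.7% to 29.0% of spermatogonia-led barcodes. Spermatogonia-led barcodes gave 0 to 0.308 UMIs of Gm8251 in 5 libraries and 1.68 in control library 3.

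Gm48051 led subset 11 by fold, at 3.88 UMIs per member, and gave 4.85 in subset 12 and 3.01 in subset 8. Subset 12 was led by Gm21190, with Speer4c, Speer4e and Gm48051 among its 10 leading genes. Speer genes belong to a family of near-identical copies, so their counts are uncertain. Subset 5, with 956 members, was led by Cdc42ep3, by the chromatin protein gene Hmgb2 (0.642 UMIs per member in the subset, 0.192 in the remaining members), by Calm2 (calmodulin, 2.56 and 0.811) and by Sycp3, of the meiotic synaptonemal complex (0.825 and 0.261). In subset 5, 8 of 2408 genes (0.332%) were at least 2 times both background levels. The spermatogonia-led level of Sycp3 was high, with all members at 0.0652 times it. This count therefore cannot tell such genes from background. Subset 15, with 323 members, was led by Zfp820 and Gm35256, the second at 0.884 to 1.58 UMIs against 0.0127 to 0.0253 in the remaining members. Subset 14 was led by Tspan6, a tetraspanin, and Akap12, an anchor of protein kinase A, and subset 13 by Hyal1, a hyaluronidase, and Cd27. Subset 7 was led by Col9a3 and Zcchc7.

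**Figure D4:**
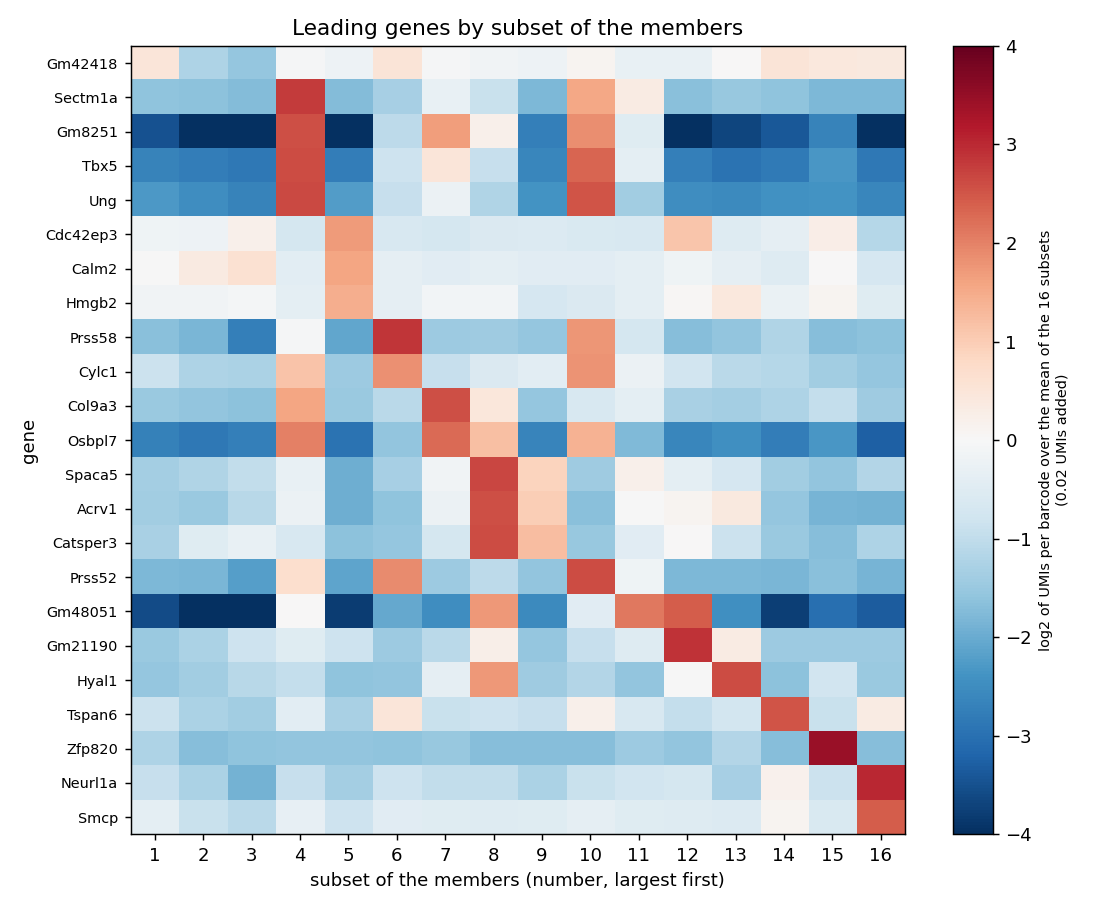
Leading genes in the 16 subsets of the members, as log2 of UMIs per barcode over the mean of the 16 subsets. Gm8251, Tbx5 and Ung are high in subsets 4 and 10, Prss58 in subset 6, Acrv1 and Catsper3 in subset 8, Prss52 in subset 10 and Smcp in subset 16. Subsets 1 to 3 are low for nearly all of these genes.

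Against spermatids of 10000 UMIs or more, 384 of 3414 genes were at least 2-fold higher in CPM in members in all 6 libraries (11.2%), and 1 was at least 2-fold lower (0.0293%), the lincRNA 1700072B07Rik at 31.3 ± 3.02 CPM in members and 76.2 ± 3.94 CPM in spermatids. Gm8251 had the largest fold, at 272 ± 52.0 CPM in members and 25.9 ± 12.4 CPM in spermatids (SD, n = 6 libraries), 10.9-fold. Mphosph8, a chromatin silencing factor, followed at 141 ± 17.4 CPM in members and 12.2 ± 2.26 CPM in spermatids. Hmgb2, a chromatin protein gene, was 8.41-fold higher and Top1, topoisomerase I, 8.01-fold. Prc1, which acts in cytokinesis, was 7.66-fold higher, and Cks2, a partner of cyclin-dependent kinases, 7.32-fold. Calm2 was 8.49-fold higher and Pabpc6, a poly(A)-binding protein, 7.54-fold. Mllt10, Cdca8, Rassf1, Tchp, Kcnq1ot1, Diablo and Slc2a3, a glucose transporter, completed the 15.

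By list, the differences from spermatids were uneven. Of the 4789 spermatids pooled here and above, 3473 were condensing. Spermatocyte markers summed to 0.139% to 0.159% of UMIs in members, 0.115% to 0.129% in round and 0.0448% to 0.0491% in condensing spermatids. After thinning, 41.1% to 55.7% of members held Malat1, against 52.7% to 68.4% of round and 6.30% to 13.3% of condensing spermatids. Of 8 spermatocyte markers measured at this level, 4 were at least 2-fold higher in members, Sycp3 among them at 119 ± 14.3 CPM in members and 19.0 CPM in spermatids, with a list median of 2.46 against 1.22 over all genes. Of 38 axoneme genes 8 were, with a median of 1.44, of 18 genes of messenger RNA storage and translation 4, with a median of 1.56, and of 68 nuclear genes of oxidative phosphorylation 2, with a median of 1.502. Malat1 and Kcnq1ot1, the 2 noncoding RNAs measured, were 4.15-fold and 7.01-fold higher. The chromatin condensation list had a median of 0.631, with Prm1 at 0.501 and Tnp1 at 0.479 of the spermatid level. The 14 condensing spermatid markers summed to 7.92% to 11.8% of UMIs in members, 2.51% to 3.56% in round and 27.5% to 32.4% in condensing spermatids. Set against the background levels, in UMIs per barcode, the 8 spermatocyte markers with at least 0.2 UMIs per member had a median of 0.367 times the spermatogonia-led and 1.28 times the Leydig-led level. Spermatogonia-led barcodes held 0.117% to 0.127% of UMIs in spermatocyte markers and Leydig-led barcodes 0.0147% to 0.0216%. The spermatogonia-led level of these markers may thus not be background alone. Malat1 was at 0.00665 times the Leydig-led level, and 60 oxidative phosphorylation genes had a median of 0.0715 times it, where these cells express the genes themselves. What part background RNA has in these differences was not tested.

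In members, 3 of 12346 genes differed between smoking and control (0.0243%, edgeR quasi-likelihood test with Benjamini-Hochberg adjustment, adjusted p under 0.05), 1 higher and 2 lower. The lincRNA 4930557F10Rik gave 106, 88.5 and 79.2 CPM in smoking libraries 1 to 3, against 62.1, 39.0 and 46.3 CPM in control libraries 1 to 3. It rose by 0.94 ± 0.16 on the log2 scale (± SE, edgeR adjusted p = 0.0472). Scgn, the calcium-binding protein secretagogin, gave 7.46, 5.88 and 19.0 CPM in smoking libraries and 27.1, 58.8 and 56.2 CPM in control libraries. It fell by 2.06 ± 0.33 on the log2 scale (± SE, edgeR adjusted p = 0.0472). The lincRNA AY036118 gave 41.7, 46.3 and 35.2 CPM in smoking libraries and 77.6, 74.8 and 75.3 CPM in control libraries, and fell by 0.84 ± 0.14 (± SE, edgeR adjusted p = 0.0472).

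These 3 were among 1668 of 12330 genes (13.5%) whose groups did not overlap. All 3 adjusted p-values lay just under the threshold, and limma-voom called 0 genes, with 1003 at an unadjusted p under 0.05. Members with no UMI of the 6 Sertoli cell genes gave 0 calls by edgeR, with 933 at an unadjusted p under 0.05. Without control library 1 there were 5 called genes, without control library 3 there was 1, and without smoking libraries 1, 2 and 3 there were 7, 6 and 16. AY036118 lies inside Gm42418 on the opposite strand (chr17:39847113-39848035 within chr17:39846958-39848788, GRCm38), and the sources used here do not say whether counting used strand. Gm42418 itself, looked up after these values were seen, averaged 2618 ± 630 CPM in smoking and 3646 ± 545 CPM in control members (SD, n = 3 each), and differed by -0.46 ± 0.15 on the log2 scale (± SE, edgeR adjusted p = 0.577). 4930557F10Rik was also among the leading genes of subset 2, at 0.265 UMIs per member in the subset and 0.173 in the remaining members, and that subset held 0.482% to 26.1% of a library's members. Its part in the difference was not tested. 4930557F10Rik and Scgn lie on chromosome 13 with 640 kb between them (chr13:23276204-23313400 and chr13:23953456-23991214).

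**Figure D5:**
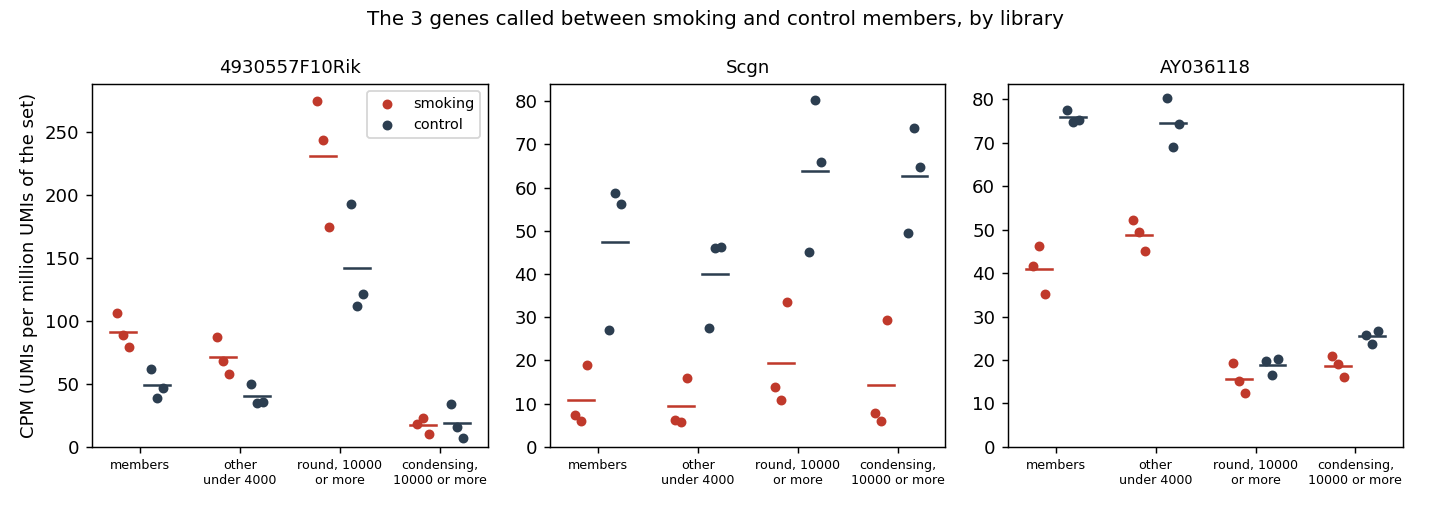
CPM of the 3 genes called between smoking and control members, in members, in the other barcodes under 4000 UMIs and in deep round and condensing spermatids, 1 point per library with smoking left of control and a line at the mean. Scgn is lower in all smoking libraries than in all control libraries in each of these 4 sets.

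These 3 genes had log2 folds of the same sign in the other barcodes under 4000 UMIs. The log2 folds there were 0.86 ± 0.17 for 4930557F10Rik, -2.11 ± 0.31 for Scgn and -0.58 ± 0.10 for AY036118 (± SE), with edgeR adjusted p-values of 0.260, 0.205 and 0.209. In that set 0 of 15530 genes (0%) passed in edgeR, 1548 had an unadjusted p under 0.05, and DESeq2 called 54. Scgn gave 13.8, 10.7 and 33.5 CPM in round spermatids of smoking libraries 1 to 3, against 45.1, 80.3 and 65.9 CPM in those of control libraries 1 to 3, and its groups did not overlap in condensing spermatids either. For 4930557F10Rik and AY036118 the groups overlapped in round spermatids, the first at 275, 244 and 175 CPM in smoking libraries and 193, 112 and 122 CPM in control libraries. In condensing spermatids 4930557F10Rik had the opposite sign, at 17.2 ± 6.44 CPM in smoking and 18.6 ± 13.7 CPM in control libraries (SD, n = 3 each). The members' own level was 0.0160 to 0.160 UMIs of Scgn per barcode.

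A test of the difference itself, with limma on within-library differences between members and the other barcodes, found 0 genes past the threshold among 12334 (0%) and 0 in each of 7 alternatives. An unadjusted p under 0.05 was reached by 807. The difference was -0.01 ± 0.14 for Scgn, -0.28 ± 0.11 for AY036118 and 0.09 ± 0.10 for 4930557F10Rik on the log2 scale (± SE, limma adjusted p of 0.990, 0.744 and 0.839). These p-values do not show that the effects were alike in both sets. On simulated data this test recovered 19% of genes changed by a log2 fold of 1.

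The 4 marker genes were not called. Tekt2 averaged 462 ± 87.2 CPM in smoking and 382 ± 34.2 CPM in control members (SD, n = 3 each), a log2 difference of 0.29 ± 0.13 (± SE, edgeR adjusted p = 0.584). The log2 folds were 0.32 for Spag6, 0.46 for Dynlt1f and 0.18 for Prss58, with edgeR adjusted p-values of 0.577, 0.577 and 0.748. Without smoking library 3 they were 0.11 for Tekt2, 0.15 for Spag6, 0.18 for Dynlt1f and 0.29 for Prss58. Gm48051 averaged 208 ± 77.5 CPM in smoking and 315 ± 49.6 CPM in control members, a log2 difference of -0.58 ± 0.20 (± SE, edgeR adjusted p = 0.577). Prm1 averaged 32828 ± 7792 CPM in smoking and 35173 ± 3844 CPM in control members, a log2 difference of -0.08 (edgeR adjusted p = 0.879).

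No list held a called gene. Of 91 nuclear genes of oxidative phosphorylation 82 had a positive log2 fold, with a median of 0.19, and of 86 ribosomal protein genes 74 had, with a median of 0.14, against 6398 of 12330 and a median of 0.01 over all genes. In the other barcodes under 4000 UMIs the same lists had 86 of 94 and 80 of 90 positive, with medians of 0.09 and 0.08. The condensing spermatid list had 1 of 14 positive, with a median of -0.10, and the chromatin condensation list 2 of 13, also with a median of -0.10. The glutathione and oxidative stress list had 13 of 19 positive with a median of 0.06, and the stress and immediate early list 4 of 12 with a median of -0.07. The 4 Sertoli and 3 Leydig markers measured had medians of -0.26 and -1.21, and their summed levels in members were 0.00258% to 0.00645% and 0.00100% to 0.00195% of UMIs in smoking libraries, against 0.00371% to 0.00581% and 0.00182% to 0.00283% in control libraries. What part RNA of other cells has in the members' small differences was not tested.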

How the data were processed

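Single-cell 3' libraries of testis cells (10x Genomics v2) were analysed from the count matrices deposited by the authors, in which each value is a raw UMI count per gene and barcode. The matrix headers name Cell Ranger 3.1.0, while the submitters' processing notes name CASAVA 1.8, Cell Ranger 7.1.0 and mm10. Doublets were not called. Libraries held 39607204 to 78455606 UMIs. No column belonged to other samples.

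The members and gene lists were chosen with earlier results of these data known. Barcodes of 10000 UMIs or more were classed by the summed share of UMIs of marker lists, with limits set after seeing the data: under 0.1% for somatic markers in spermatids and spermatocytes, and at least 15% for condensing spermatids, 0.25% for round spermatids, 0.3% for spermatocytes, 0.15% for spermatogonia and 1% for Leydig cells. Counts were summed per library. Smoking and control were compared with edgeR 4.0.16 (R 4.3.3; quasi-likelihood test, TMM, filterByExpr, Benjamini-Hochberg threshold 0.05). The difference between members and the other barcodes under 4000 UMIs was tested with limma 3.58.1, taking log2 CPM (prior count 1) of one minus the other in each library. DESeq2 1.42.0 and limma-voom were alternatives. The fits were tested on simulated data with 100 genes changed at each of 2 log2 folds. At a log2 fold of 1, edgeR recovered 88% and the limma difference 19%. At a log2 fold of 2 these were 100% and 96%, and edgeR made 5 false calls. Shares were compared by exact permutation over 20 assignments. Descriptions against other barcodes and spermatids required 50 CPM and a 2-fold difference in all 6 libraries. Subsets came from Leiden grouping (leidenalg 0.10.2, resolution 0.8) on 2000 variable genes and 20 principal components. Barcode thinning used 1500 UMIs.

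Named genes were the 4 markers, the 15 largest and 10 smallest folds of each description, called genes of at least 10 CPM whose groups did not overlap, the 15 most abundant genes and up to 4 of highest CPM per list. Leading genes of subsets, genes above both background levels, Gm42418 and Prm1 between groups were added after values were seen. Gene positions are from GENCODE M21 (GRCm38), matched for 30766 of 30905 identifiers. Shared symbols covered 127 genes. Alternatives covered normalization, low-count filters, tools, limits of the rule, folds and floors. Leaving out libraries in the descriptions and regrouping subsets were chosen after seeing the data.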

Additional observations from a re-analysis of the deposited data

How the results depend on the processing

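The count of genes called between smoking and control members, 3 by edgeR, was 64 with no filter on low counts, 0 by limma-voom, 0 in members with no UMI of the 6 Sertoli cell genes, and 1 to 16 with 1 library left out. Of the 3 named genes, 0 were called by limma-voom, 0 in members with no Sertoli UMI, and 0 to 3 with 1 library left out. Scgn was called under 9 of 13 alternatives, AY036118 under 7 and 4930557F10Rik under 6, each with an unchanged sign in all 13. In the other barcodes under 4000 UMIs the count of 0 by edgeR (1548 at an unadjusted p under 0.05) was 54 by DESeq2, 236 with no filter, and 0 to 32 with 1 library left out. The log2 fold of Prss58 was 0.18 with all libraries, -0.0237 without smoking replicate 2 and up to 0.37 with another library left out. The differences in member share ran from 1.14 to 4.66 percentage points of all barcodes and from 3.76 to 8.73 of barcodes under 4000 UMIs with 1 library left out.

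The 38 genes past the fold against other barcodes were 10 against other barcodes held to the Sertoli limit and at most 20% mitochondrial UMIs, 25 at a fold of 4, 96 at a floor of 20 CPM and 35 to 44 with 1 library left out. The 385 genes against spermatids were 47 at a fold of 4, 996 at a floor of 20 CPM and 385 to 436 with 1 library left out. The 7 genes above both background levels were 9 to 12 with 1 library left out. The cause of these shifts was not tested. No paired analysis was possible because the labels number no replicates, and the numbers 1 to 3 used here only name the libraries of a group. With 3 libraries a group and a median of 2427 UMIs per member, genes of few UMIs per library have wide errors, and shares could not reach an exact p under 0.1.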

Other observations

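Among the members, red blood cell genes sat almost wholly in 1 barcode of 1 library. In smoking library 1 a single member held 1225 of the 1228 UMIs of the 5 listed genes among the members (99.8%), while the members of the other 5 libraries held 4 to 25 in all. This barcode met the rule because its mitochondrial share and Sertoli cell UMIs were also under the limits. Per library, the other barcodes under 4000 UMIs held 0.000962% to 0.0165% of UMIs in these 5 genes.

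Among genes short of the threshold between smoking and control members, 1700064H15Rik averaged 18.1 ± 13.7 CPM in smoking and 2.54 ± 0.750 CPM in control members (SD, n = 3 each), with a log2 fold of 2.80 ± 0.58 (± SE) and an edgeR adjusted p of 0.216. Rapsn, which clusters acetylcholine receptors at the neuromuscular junction, averaged 27.0 ± 1.49 CPM in smoking and 16.6 ± 0.636 CPM in control members, with an edgeR adjusted p of 0.292. Both genes were looked up after their p-values were seen.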
